A study of Mus musculus with 12 samples.

Results

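The 45 genes described here encode ribosome biogenesis factors, the proteins that transcribe, modify, cut and fold ribosomal RNA and assemble it into subunits without staying in the finished ribosome. They were found by name: each member's Ensembl identifier was looked up in GENCODE mouse GRCm38 (release M21), and all 45 have a row in both count tables, which list 32285 identifiers for hematopoietic stem cells (HSCs) and 56980 for macrophages, 32210 of them shared. The rule that picks them uses names and no threshold on measured values, but the list was drawn up with earlier results of these data known. By role the members are 5 nucleolar scaffold and assembly factors, 3 RNA polymerase I subunits, 3 box C/D and 4 box H/ACA snoRNP proteins, 15 factors of the small subunit and 15 of the large subunit. The structural ribosomal protein genes, 79 with a row in both tables, served for comparison.

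The study measured RNA in bulk from sorted fetal liver cells of mouse embryos at E14.5, a stage at which the liver makes most of the blood. All embryos carried floxed alleles of Jag1 (Jag1 f/f), the gene of a Notch ligand. They were either negative or positive for Vav-Cre, a transgene that drives recombination in blood cells. Each of the 4 groups had 3 libraries: HSCs without Cre (labelled WT), HSCs with Cre (labelled Mutant), CD169+ macrophages without Cre and CD169+ macrophages with Cre. HSCs were 2000 cells per library of strain C57BL/6, gated as DAPI- CD45+ Lin- cKit+ Sca1+ CD48- CD150+. Macrophages were 1000 to 3000 cells per library, with no strain in their labels. No label states that replicates are from different embryos, so p-values measure only the spread between these libraries, which may be technical.

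Ribosome production begins in the nucleolus, where RNA polymerase I transcribes a long precursor of ribosomal RNA. Box C/D and H/ACA snoRNPs modify that precursor, the small subunit processome folds and cuts its 5′ side, and a separate chain of factors builds the large subunit before both are exported. Many of these genes are known targets of the transcription factor MYC, and fetal liver HSCs are known to divide more often than those of adult marrow.

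Depth differed between the sorts and, in macrophages, between the genotypes. Total counts per library were 51982064 to 77463770 in HSCs, 17230019 to 24658205 in macrophages without Cre and 2602934 to 5366990 in macrophages with Cre. The median member had 5482 to 7829 reads in an HSC library, 916 to 1414 in a Cre negative macrophage library and 154 to 272 in a Cre positive one. Levels are given in CPM, reads scaled to a common library size after TMM scaling, and 3 reads were worth 0.0386 to 0.0561 in HSCs, 0.138 to 0.174 in Cre negative and 0.522 to 1.08 in Cre positive macrophages. Values of a group are listed in the order of replicates 1, 2 and 3. Jag1, the targeted gene, was at 6.53, 6.87 and 1.16 CPM in HSC libraries labelled Cre negative and at 10.5, 0 and 19.5 in those labelled Cre positive (log2 fold change 1.04, SE 1.99, edgeR adjusted p = 0.996). These HSC values go against the labels in 2 of the 3 libraries labelled Cre positive, although gene counts can include reads outside a deleted part, whose extent is not given in the sources used here. In macrophages Jag1 was at 52.6, 21.1 and 26.3 CPM without Cre and at 0, 10.6 and 6.79 with it (log2 fold change -2.51, SE 1.42, edgeR adjusted p = 1.00). Other cell types' markers were present in both sorts: 11 sinusoidal endothelial markers summed to 5755 to 13034 CPM in HSC libraries and 8970 to 15831 in macrophage libraries, where 12 macrophage markers summed to 1944 to 5542. In HSC libraries the 10 HSC markers summed to only 965 to 2193 CPM. The macrophage markers there summed to 1018 to 2218.5 CPM and 10 hepatoblast markers to 1412 to 3277. Macrophage Cre negative replicate 1 stood apart, with 4018 CPM of 10 hepatoblast markers. Cre negative replicates 2 and 3 had 504 and 499 CPM of them, and the Cre positive libraries 417 to 729.

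Levels of different members were set side by side per kilobase (kb) of exon. In HSCs Npm1, a nucleolar chaperone that is known to shuttle to the cytoplasm, led with 183 CPM per kb (167 to 195 over the 6 libraries), followed by Rrp1, a large subunit factor, at 158 and Nop10, a small H/ACA protein, at 141. Their ranges overlapped, so the order of these 3 is not separated by the libraries. At the low end in HSCs were Utp20 (1.52 CPM per kb), Noc3l (3.47) and Polr1a (4.40). In macrophages Npm1 (253 CPM per kb) and Ncl, the RNA-binding nucleolar protein nucleolin (162), had ranges that overlapped each other. Utp3 (80.1) and Rrp1 (65.7) came next, and Wdr12 was lowest at 4.07. The order per kb depends on the exon length used, the union of all annotated exons, which is 11955 bases for Wdr12 and 3451 for Utp4. Before division by length, Wdr12 was at 2.96 to 77.8 CPM in macrophage libraries and Utp4 at 0 to 33.3. Ppan, a large subunit factor, ranked 21 of 45 in HSC libraries labelled Cre negative (36.1 CPM per kb) and 15 in those labelled Cre positive (37.1). In macrophages it ranked 27 without Cre (13.7 CPM per kb) and 45, last, with Cre (0.970). Utp18 was close to it with Cre at 1.05 CPM per kb, from 0, 61 and 0 reads against 5, 24 and 31 for Ppan. The last place is therefore not separated by the libraries.

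**Figure D1:**
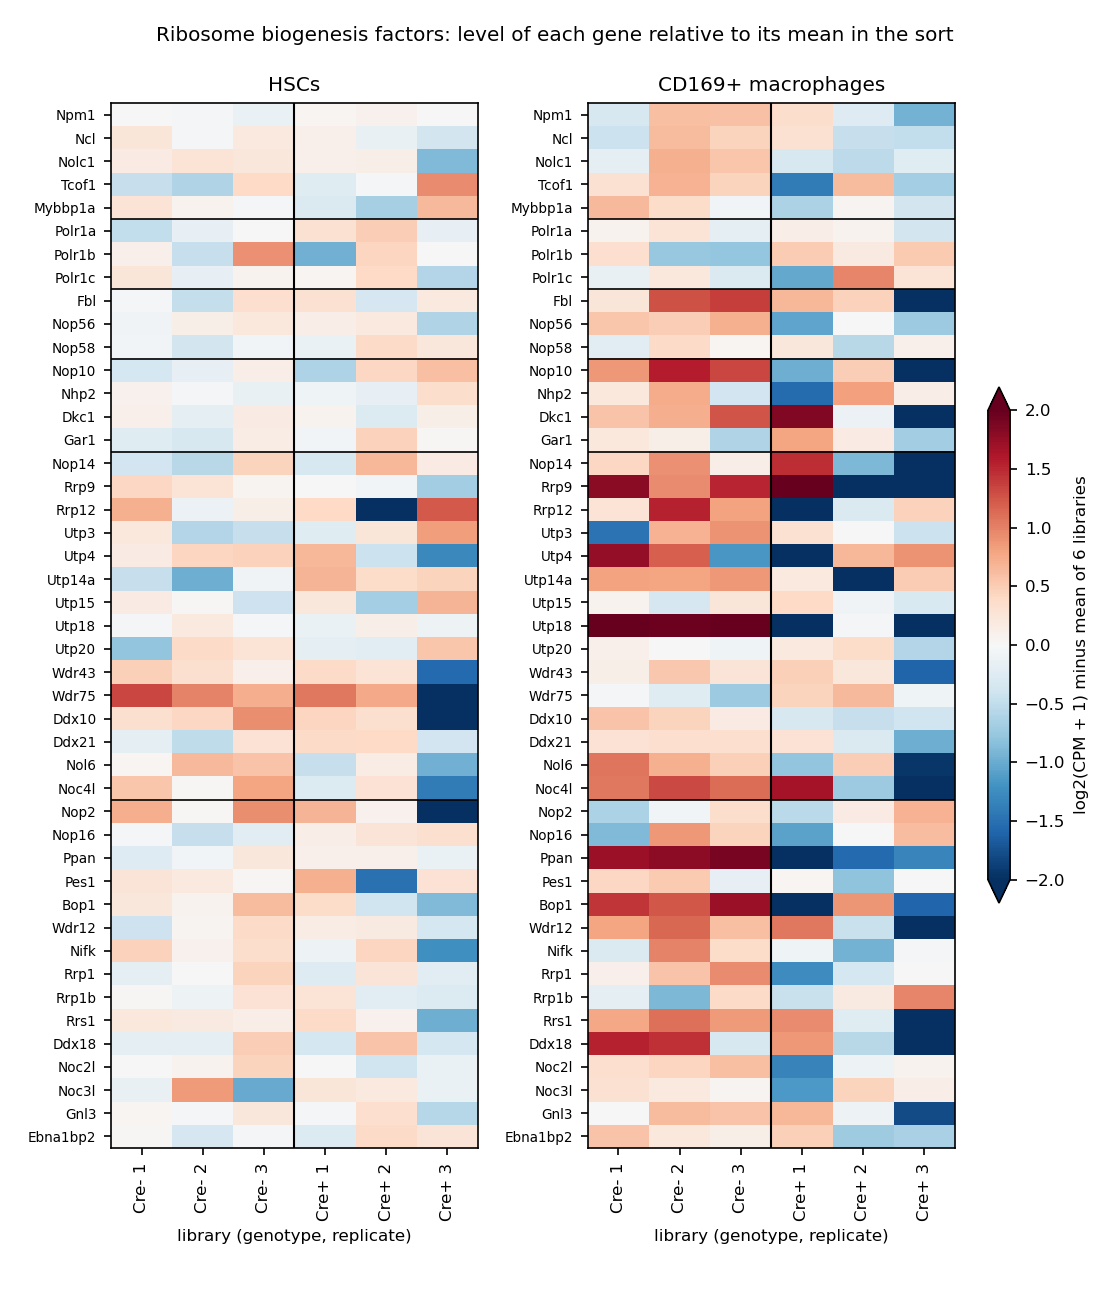
Levels of the 45 ribosome biogenesis genes in each of the 12 libraries, as log2(CPM + 1) minus each gene's mean over the 6 libraries of its sort (red above, blue below), with genes in rows ordered by role and libraries in columns. In macrophages the Ppan row is dark red in all 3 Cre negative columns (51.1 to 58.7 CPM) and blue in all 3 Cre positive ones (1.80 to 5.39 CPM), while in HSCs it stays pale (122 to 171 CPM).

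In HSCs the members were split in direction and the groups mostly overlapped. Of 45, 19 had a log2 fold change above 0 (labelled Cre positive over labelled Cre negative) and 26 below 0, beside 49.7% above and 50.3% below over all 13962 genes tested. The members' median was -0.05, and that of all genes -0.00. No member passed an adjusted p of 0.05: edgeR called 0, DESeq2 called 0 (beside 0.759% of all genes lower and 0.193% higher), and at an unadjusted edgeR p under 0.05 1 member was higher and 0 were lower. Over all genes edgeR called 0%, and at the unadjusted threshold 2.42% were higher and 3.97% lower. Groups did not overlap for 3 members that lay higher (Utp14a, Nop16 and Npm1) and 3 that lay lower (Noc2l, Rrp9 and Nolc1), 6.67% of the members each way beside 6.37% higher and 9.33% lower over all genes. Because Jag1 goes against the labels, these directions hold only for the libraries as labelled.

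Utp14a, a protein of the small subunit processome, was the HSC member with the smallest p. It was at 24.2, 16.6 and 32.1 CPM in libraries labelled Cre negative and 54.4, 43.9 and 46.0 in those labelled Cre positive (log2 fold change 0.99, SE 0.39, edgeR adjusted p = 0.775). All 3 labelled positive were above all 3 labelled negative. Nop16, a large subunit factor, lay in the same direction at 136, 101 and 120 against 153, 167 and 174 CPM (log2 fold change 0.47, SE 0.21, edgeR adjusted p = 0.806). Npm1 was the steadiest member in this sort, with a ratio of its highest to its lowest library of 1.16, at 486, 481 and 446 against 501, 519 and 491 CPM.

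The other members on the higher side had overlapping groups. Utp3, which acts in the processome, was at 140, 80.6 and 87.3 against 103, 142 and 216 CPM, and Nop58, a core protein of C/D snoRNPs, at 227, 182 and 229 against 214, 310 and 278. Tcof1, the nucleolar protein treacle that links RNA polymerase I transcription to pre-ribosomal RNA processing, was at 71.7, 64.7 and 130 against 83.1, 97.3 and 190. Nop10 was at 116.5, 133 and 163 against 97.02, 199 and 227 CPM and Gar1, another H/ACA protein, at 66.4, 62.5 and 86.8 against 75.6, 108 and 79.8.

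Members on the lower side were found among both subunits' factors. Nol6, an RNA-binding protein of the small subunit processome, was at 35.1, 53.7 and 51.0 against 24.4, 37.7 and 16.9 CPM, and Noc4l, which acts in small subunit export, at 113, 77.7 and 133 against 63.0, 93.4 and 28.5. Their groups overlapped. Rrp9, a protein bound to the U3 snoRNA, did not overlap at 99.4, 90.5 and 77.5 against 74.1, 71.8 and 45.5 CPM, and its log2 fold change was -0.48. Noc2l, which binds early large subunit precursors, was at 197, 205 and 266 against 196, 148 and 178, its groups parted by about 1 CPM. The large subunit factor Bop1, part of the PeBoW complex with Pes1 and Wdr12, was at 126, 114 and 168 against 139, 82.2 and 58.0 CPM. Replicate 3 of the libraries labelled Cre positive had the lowest value of the 6 for 18 of the 45 members, among them Bop1, Nolc1 (86.2 CPM against 172 to 193 in the other 5) and Wdr75 (0 CPM). For the other well-known members the labelled groups overlapped: Ncl was at 1243, 1037 and 1214 against 1128, 957 and 822 CPM. Fibrillarin (Fbl), the methyltransferase of C/D snoRNPs, was at 77.9, 56.8 and 101 against 98.9, 63.0 and 90.9, and dyskerin (Dkc1), the pseudouridine synthase of H/ACA snoRNPs, at 207, 171 and 217 against 205, 161 and 210. Polr1a, the largest subunit of RNA polymerase I, was at 36.0, 45.5 and 51.0 against 63.3, 72.0 and 45.4 CPM, and Polr1b, the subunit next in size, at 45.2, 30.0 and 79.9 against 21.02, 56.5 and 41.5. Nop56, a core protein of C/D snoRNPs, was at 360, 407 and 437 against 413, 431 and 248.

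By role, median log2 fold changes in HSCs ran from -0.12 for the 15 large subunit factors (4 higher, 11 lower) and -0.11 for the 5 nucleolar factors to 0.10 for box C/D and 0.19 for box H/ACA proteins (3 of 4 higher). The 15 small subunit factors split 7 higher to 8 lower (median -0.09), and the RNA polymerase I subunits 1 to 2 (median -0.05). The members' spread within a group had a median SD of 0.43 on the log2 scale, beside 0.59 over all genes.

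**Figure D2:**
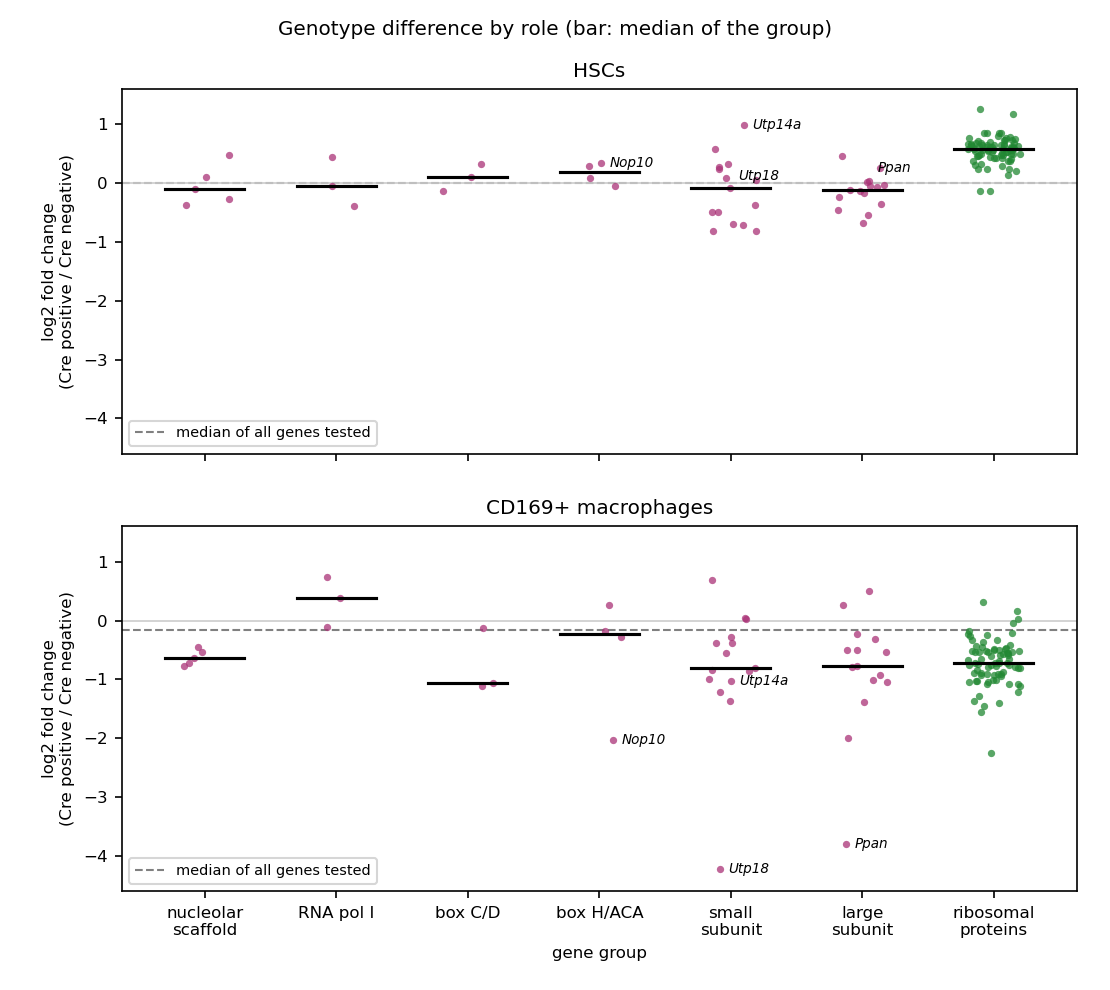
log2 fold changes (Cre positive minus Cre negative, edgeR) of all 45 members by role (purple) and of the structural ribosomal protein genes (green), in HSCs above and in macrophages below. Black bars are group medians and the dashed line is the median of all genes tested. In macrophages the members' points lie mainly below 0, with Utp18 (-4.22) and Ppan (-3.80) lowest, whereas in HSCs they lie on both sides of 0.

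In macrophages 37 of 45 members had a log2 fold change below 0 and 8 above, beside 56.1% below and 43.9% above over all 17806 genes tested. The members' median was -0.56 and that of all genes -0.16, a difference of -0.40. The difference was 0.08 when Cre positive replicate 2 was left out, 0.01 when replicate 3 of that group was, and -0.55 without Cre negative replicate 1. With no filter on low counts the difference turned to 0.51, and with the replicate number as a block it was -0.01. It is taken from the median of all genes, so its turn does not by itself show that the members turned. With no filter the log2 fold changes of Ppan, Utp18 and Nop10 were -3.86, -4.28 and -2.10, beside -3.80, -4.22 and -2.03 in the main fit. Leaving out each library, 35 to 38 members were below 0. No member passed by edgeR (0 called; 0% of all genes). At an unadjusted edgeR p under 0.05, 4 were lower (Ppan, Utp18, Rrp1 and Nop56) and 0 higher, against 4.91% lower and 0.511% higher over all genes. DESeq2 called 1, Ppan, against 0.286% of all genes lower and 0.0562% higher. Groups did not overlap for 10 members, all lower: Ppan, Utp18, Rrp1, Nop56, Nolc1, Noc2l, Ddx10, Bop1, Nop10 and Utp14a, beside 11.8% of all genes lower without overlap and 2.27% higher. In bulk RNA, fewer cells of a type and less RNA per cell cannot be told apart, and depth also differed with genotype, at 2602934 to 5366990 against 17230019 to 24658205 reads. Stellate and mesenchymal markers lay lower with Cre too. Their 10 genes summed to 1708, 224 and 290 CPM without Cre, highest in replicate 1, and to 92.4 to 113 with it (Pdgfrb at 0 in all 3 Cre positive libraries). With all macrophage libraries thinned to the shallowest, the members' median minus that of all genes was -0.41. The part of cell content, RNA per cell and depth in the results was not otherwise tested.

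Ppan had the smallest p of all members in macrophages and was the only member whose genotype effect passed the test of a difference between the sorts. The gene, known for a role in 60S subunit assembly as a homologue of the fly gene peter pan, spans chr9:20888175-20892178 on the plus strand (GRCm38), and its exons overlap 2 snoRNA genes on the same strand. The 250 bases before its start, from the RefSeq promoter table for GRCm38.p6 (chr9:20887925-20888174, plus strand), are shown because Ppan was the only member to pass the test of the difference between the sorts. Capitals mark TTTATAAA, in which the motif TATAAA was matched on both strands, overlapping; the first match starts 99 bases before the gene.
Ppan promoter: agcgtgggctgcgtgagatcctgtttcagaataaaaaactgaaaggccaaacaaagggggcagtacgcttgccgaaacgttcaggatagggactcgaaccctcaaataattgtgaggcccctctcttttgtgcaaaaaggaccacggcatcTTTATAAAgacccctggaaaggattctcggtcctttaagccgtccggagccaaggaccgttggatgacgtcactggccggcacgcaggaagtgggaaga
TATAAA occurred in 3 of 42 member windows (7.143%: Ppan, Pes1 and Dkc1) and in 12.368% of 32851 windows of all genes. The motif CACGTG, a sequence known as the E-box that MYC can bind and its own reverse complement, was in 2 of the 42 (4.762%) and in 6.021% of all windows. The windows around it, with CACGTG in capitals, were:
Nop2 (chr6:125131806-125131845, plus strand): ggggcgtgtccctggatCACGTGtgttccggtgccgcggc
Utp18 (chr11:93885767-93885803, minus strand): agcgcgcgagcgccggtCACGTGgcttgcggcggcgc
Of 45 members, 38 had a window. A match describes letters only and says nothing of a factor's binding.

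In macrophages without Cre Ppan was at 51.1, 54.1 and 58.7 CPM (883, 1159 and 1274 reads), and with Cre at 1.80, 4.46 and 5.39 CPM (5, 24 and 31 reads). All 3 Cre positive libraries were below all 3 Cre negative ones (54.7 ± 3.83 against 3.89 ± 1.87 CPM, SD, n = 3 each), with a log2 fold change of -3.80 (SE 0.99). The adjusted p was 0.773 by edgeR, 0.00581 by DESeq2, and 0.0361 by edgeR when Cre positive replicate 3 was left out. It was 0.264 or more in every other edgeR fit of the macrophages. In reads thinned to the shallowest library, Ppan had 120, 131 and 186 against 5, 11 and 13 reads, with an edgeR adjusted p of 0.9999.

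In HSCs Ppan was at 122, 141 and 171 CPM in libraries labelled Cre negative and at 157, 156 and 132 in those labelled Cre positive (log2 fold change 0.04, SE 0.22, edgeR adjusted p = 0.996), with overlap. The genotype effect in macrophages minus that in HSCs was -3.84 on the log2 scale (SE 0.67, edgeR interaction adjusted p = 0.0311). It was the only member to pass that test, beside 0.0696% of the 20128 genes tested; at the unadjusted threshold 2 members passed, both lower in macrophages, beside 5.47% of all genes lower and 8.62% in either direction. The edgeR adjusted p was 0.112, 0.104 and 0.0807 without HSC replicate 1, 2 or 3 labelled Cre negative, and the HSC direction holds only for the libraries as labelled. The interaction fit shares a single dispersion per gene between the sorts. Its SE for Ppan, 0.67, is below the 0.99 of the macrophage fit alone, where the edgeR adjusted p was 0.773. Over all genes the median SD within a group was 0.59 in HSCs and 1.16 in macrophages on the log2 scale. Whether the call holds with a separate dispersion for each sort was not tested.

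**Figure D3:**
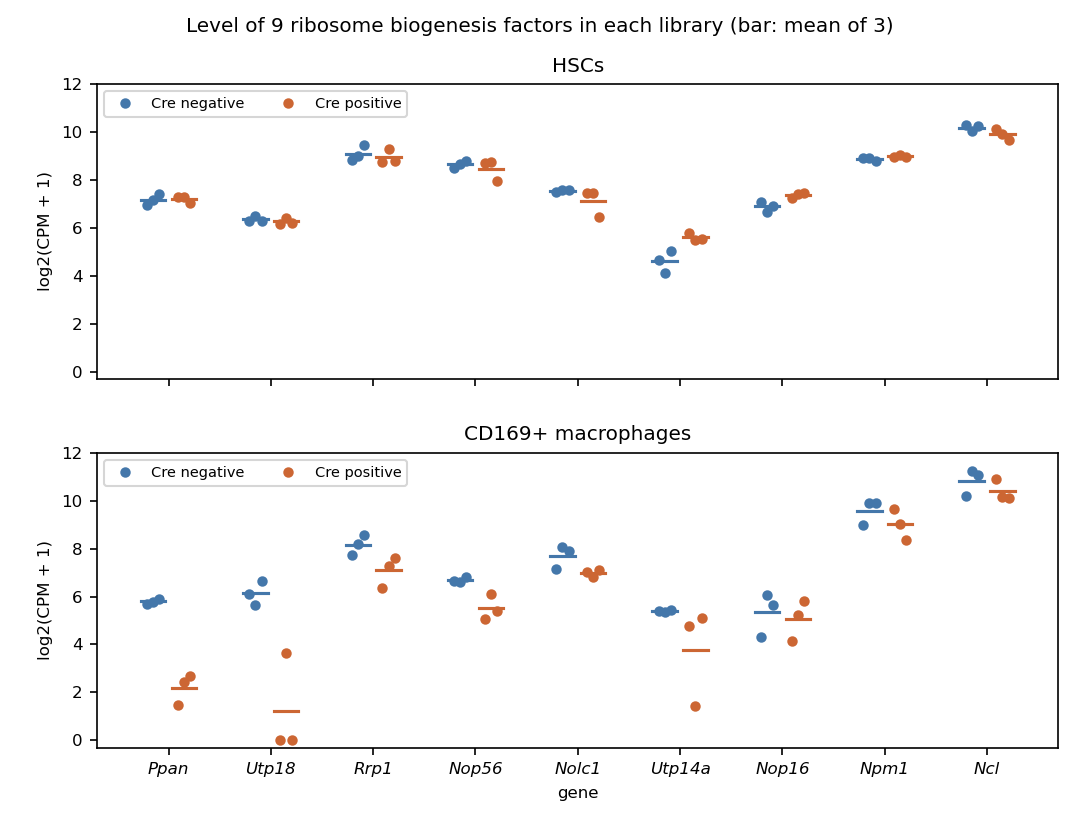
Level of 9 members in each library as log2(CPM + 1), in HSCs above and macrophages below, blue for Cre negative and orange for Cre positive as labelled, with a bar at the mean of 3 libraries. The 3 Cre positive macrophage points of Ppan lie at 1.80 to 5.39 CPM, all below 51.1 to 58.7 CPM without Cre, while its HSC groups overlap.

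Among small subunit factors in macrophages, Utp18, a WD-repeat protein of the processome, was at 67.9, 48.5 and 99.4 CPM without Cre and 0, 11.3 and 0 with it. The reads were 1173, 1038 and 2155 against 0, 61 and 0, and a single library therefore carries all Cre positive reads. At 0 reads the other 2 allow up to 1.08 and 0.522 CPM. Its log2 fold change was -4.22 (SE 1.51, edgeR adjusted p = 0.773). That adjusted p was 0.0270 without Cre positive replicate 2 and 0.0241 with no filter on low counts, both by edgeR. It was 0.0148 with a replicate block and 0.2646 or more in every other edgeR fit of the macrophages. The difference between the sorts was -4.13 (SE 1.55, edgeR adjusted p = 0.518), and -14.6 (edgeR adjusted p = 3.75e-05) without Cre positive replicate 2, which leaves only libraries at 0 reads in that group, so that the fitted size is no bound. In HSCs it was at 77.2, 90.3 and 76.3 against 71.2, 85.0 and 72.9 CPM. Nol6 was at 84.5, 66.0 and 55.7 against 22.7, 56.3 and 9.57 CPM, with overlap. Wdr75, a processome protein, had a higher mean with Cre at 53.1, 45.4 and 32.5 against 74.1, 85.5 and 50.8 CPM, with overlap. Utp14a, on the higher side in HSCs, was at 40.8, 40.3 and 42.5 against 26.3, 1.67 and 33.1 here, and Ddx10, an RNA helicase, at 106, 96.2 and 79.6 against 56.5, 51.1 and 53.1. Neither had overlapping groups in macrophages.

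Of the 15 large subunit factors 13 had negative log2 fold changes in macrophages (median -0.77), as did 12 of the 15 small subunit factors (median -0.81). Rrp1 was at 211, 293 and 381 CPM without Cre and 81.7, 154 and 195 with it (log2 fold change -1.04, SE 0.40, edgeR adjusted p = 0.773), and Noc2l at 180, 190 and 215 against 55.4, 131 and 149. The groups of both did not overlap. Bop1 did not overlap either, at 33.6, 29.4 and 41.9 against 0, 22.7 and 3.31 CPM, while its partners Pes1 (118, 127 and 79.5 against 91.4, 50.6 and 88.6) and Wdr12 (60.5, 77.8 and 52.8 against 72.7, 25.1 and 2.96) did. Summed over the 15 factors, CPM was 1066, 1311 and 1326 without Cre and 698, 748 and 836 with it, again with no overlap. Rrp1b and Nop2 had higher means with Cre, at 40.7, 24.7 and 61.6 against 34.2, 52.8 and 92.6 CPM for Rrp1b and 37.8, 57.0 and 75.7 against 40.3, 66.6 and 96.6 for Nop2, with overlap.

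All 3 box C/D proteins had negative log2 fold changes in macrophages, and they summed to 210, 286 and 286 CPM without Cre and 181, 171 and 128 with it. Nop56 was at 100, 96.5 and 112 against 32.4, 68.6 and 40.9 CPM (log2 fold change -1.12, SE 0.52, edgeR adjusted p = 0.879), without overlap, and Fbl at 41.2, 85.6 and 92.2 against 55.8, 48.5 and 1.22, with overlap. In the H/ACA group Nop10 lay at 16.97, 28.2 and 23.7 against 3.96, 12.8 and 0 CPM (293, 605 and 513 against 11, 69 and 0 reads). Dkc1 lay at 52.5, 58.7 and 85.3 against 130, 32.2 and 0.870 CPM and Gar1 at 36.5, 33.9 and 20.3 against 54.7, 35.3 and 19.0. Replicate 3 of the Cre positive group had the lowest value for 18 of the 45 members and replicate 1 for 14.

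All 5 nucleolar factors had negative log2 fold changes in macrophages (median -0.63). Nolc1, a chaperone of snoRNPs, was at 140, 263 and 236 CPM against 128, 110 and 135, without overlap. Mybbp1a, a nucleolar MYB-binding protein, was at 254, 209 and 155 against 104, 169 and 126. Npm1 was at 503, 951 and 945 against 801, 526 and 326, and Ncl at 1170, 2428 and 2141 against 1931, 1145 and 1114 CPM. Of these 4, only Nolc1 kept its groups apart. RNA polymerase I subunits went the other way for 2 of 3: Polr1b was at 41.8, 19.0 and 18.8 against 47.5, 37.4 and 47.7 CPM, and Polr1c at 13.3, 17.4 and 11.9 against 6.84, 30.3 and 18.3. Polr1a, the steadiest member in macrophages, was at 124, 143 and 105 against 129, 124 and 91.9 CPM.

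Between the sorts the directions differed for 21 of 45 members: 16 were higher with the Cre label in HSCs and lower with Cre in macrophages, and 5 the reverse, while 21 were lower and 3 higher in both. The interaction was below 0 for 40 of 45 members, beside 55.8% of all genes, with a median of -0.47 beside -0.21. These signs rest on the HSC libraries as labelled, which Jag1 goes against. Nop56 (interaction -0.996, SE 0.49, edgeR adjusted p = 0.589) and Nop10 (-2.37, SE 1.20, edgeR adjusted p = 0.619) followed Ppan and Utp18 in size of p. The Nop10 value was -4.06 without macrophage Cre positive replicate 2 (edgeR adjusted p = 0.142). That leaves libraries with 11 and 0 reads in the group, so the fitted size rests on counts near the floor. The sorts share no library, so each effect has its own controls.

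The members were set against the structural ribosomal protein genes, whose products stay in the finished ribosome. In HSCs 77 of the 79 had a log2 fold change above 0, as labelled, with a median of 0.58, which was 0.64 above that of the members. Of these 79 genes 33 were higher at an unadjusted edgeR p under 0.05, beside 2.42% of all genes. By edgeR 0 passed the adjusted threshold (0% of all genes), and by DESeq2 1, Rps7, beside 0.193% of all genes higher. The summed CPM of the members was 6734, 6260 and 7461 in libraries labelled Cre negative and 6653, 6803 and 5742 in those labelled Cre positive, with overlap. That of the ribosomal proteins was 16475, 16926 and 16894 against 18095, 23743 and 29400, without overlap. The log2 ratio of members to ribosomal proteins was accordingly -1.29, -1.44 and -1.18 against -1.44, -1.80 and -2.36. Those 3 labelled Cre positive were at or below all 3 labelled Cre negative. Replicate 3 labelled Cre positive had the lowest ratio, and without it the difference of the medians was 0.40.

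In macrophages 74 of the 77 ribosomal protein genes tested had a log2 fold change below 0, with a median of -0.72. Their median minus that of the members was -0.17. At the gene level 28 were lower at an unadjusted edgeR p under 0.05, beside 4.91% of all genes. The adjusted threshold was passed by 0 with edgeR or DESeq2, beside 0% and 0.286% of all genes lower. The summed CPM of members was 4823, 7168 and 6652 without Cre and 5337, 4132 and 3434 with it, and that of ribosomal proteins 22727, 43164 and 40713 against 23659, 22724 and 20548. The log2 ratio was -2.24, -2.59 and -2.61 against -2.15, -2.46 and -2.58, so the groups overlapped, and their means differed by 0.08. Both sums in Cre negative replicate 1 were near those of the Cre positive libraries. Without it the difference of medians was -0.14. Of 77 ribosomal protein genes tested in both sorts, 72 were higher with the label in HSCs and lower with Cre in macrophages. All 79 interaction values were below 0, beside 55.8% of all genes. Of these, 0 passed the adjusted threshold (0.0696% of all genes) and 55 had an unadjusted edgeR p under 0.05 (5.47% of all genes lower).

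**Figure D4:**
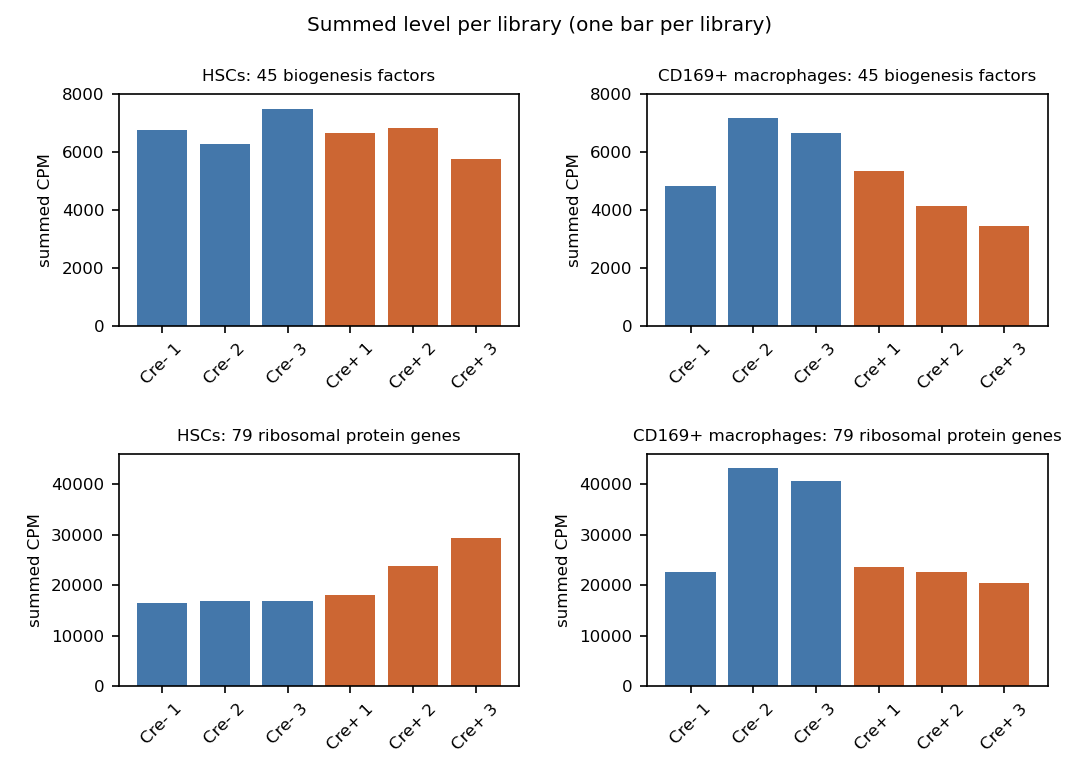
Summed CPM of the 45 members (top) and of the 79 structural ribosomal protein genes (bottom), 1 bar for each library, HSCs left and macrophages right, blue for Cre negative and orange for Cre positive as labelled. In HSCs the ribosomal protein sums are 18095 to 29400 in libraries labelled Cre positive and 16475 to 16926 in those labelled Cre negative, while the member sums overlap.

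Other genes of ribosome biogenesis, 101 listed and 100 tested, were also split in HSCs, at 49 higher and 51 lower with a median log2 fold change of -0.01, and 0 passed in either sort by edgeR or DESeq2. Values are again labelled Cre negative against labelled Cre positive. Taf1d, a subunit of the factor that recruits RNA polymerase I, was at 48.4, 85.0 and 53.7 against 107, 116 and 121 CPM, and Emg1, a methyltransferase of the small subunit, at 168, 170 and 140 against 207, 288 and 228. Ftsj3, a large subunit factor, was at 127, 139 and 101 against 74.8, 72.6 and 40.8 CPM. Zfp622, a factor of late large subunit maturation, was at 73.2, 75.1 and 79.03 against 138, 99.95 and 144. The groups of these 4 genes did not overlap. At an unadjusted edgeR p under 0.05, 5 were higher and 2 lower, beside 2.42% and 3.97% of all genes. Without overlap 5 were higher and 7 lower, beside 6.37% and 9.33%.

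In macrophages 63 of the 100 were lower and 37 higher, median -0.31, with 15 lower and 3 higher without overlap, beside 11.8% and 2.27% of all genes. At an unadjusted edgeR p under 0.05, 3 were lower and 1 higher, beside 4.91% and 0.511%. With 100 genes tested these counts are also percentages, and they lie near the shares over all genes. Ubtf, the factor that shapes ribosomal DNA chromatin for RNA polymerase I, was at 275, 225 and 234 CPM without Cre and 93.6, 157 and 99.7 with it, and Riok2, a kinase of late small subunit maturation, at 26.2, 84.5 and 73.4 against 7.197, 31.98 and 4.52. The groups of Ubtf did not overlap and those of Riok2 did. Polr1e, a further RNA polymerase I subunit, was at 20.04, 23.7 and 39.1 against 2.52, 6.88 and 0 CPM, without overlap. Mphosph10, a processome protein, lay the other way at 39.3, 69.8 and 40.5 against 84.6, 136 and 117 CPM, without overlap.

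Myc itself was at 347, 267 and 281 CPM in HSC libraries labelled Cre negative and at 194, 195 and 207 in those labelled Cre positive (log2 fold change -0.59, SE 0.19, edgeR adjusted p = 0.689), without overlap. In macrophages it was at 26.8, 98.7 and 29.7 CPM without Cre and 77.01, 67.1 and 49.6 with it, and the groups overlapped. Mycn, a relative of Myc, had 3.13, 6.21 and 9.13 CPM in macrophages without Cre. It was at 0 in all 3 libraries with Cre, where 3 reads are worth 0.522 to 1.08 CPM, so it passed the filter on low counts only through the Cre negative group. Among Myc and its partners the smallest edgeR adjusted p in macrophages was 0.773, so the Mycn difference was not called. In HSCs Mycn was at 190, 333 and 569 against 467, 355 and 214 CPM.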

How the data were processed

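RNA was measured in 12 bulk libraries. The authors deposited raw read counts per gene, unnormalized, in 1 table per sort. The submitters' processing notes name STAR 2.7.6a, featureCounts, Subread 2.0.1 and the build GRCm38 (mm10) for HSCs, and for macrophages mm10 alone. The macrophage aligner and counter, and the strand settings of both, were not given in the sources used here. The kit, SMART-Seq v4 per the labels' protocols, does not mark strand, so reads of the 15 members whose exons overlap a gene on the opposite strand cannot be told apart from that gene's. These members are Utp14a, Nop56, Noc2l, Bop1, Rrp9, Dkc1, Gnl3, Mybbp1a, Nhp2, Nop14, Pes1, Polr1a, Rrp1b, Wdr12 and Wdr43. Npm1 and ribosomal protein genes have near-identical pseudogenes and are uncertain to that extent.

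Each sort was fitted on all genes in R 4.3.3 with edgeR 4.0.16, which uses limma 3.58.1: filterByExpr, TMM, robust glmQLFit and glmQLFTest, with Benjamini-Hochberg adjusted p under 0.05. The interaction was fitted over the identifiers in both tables, with a single dispersion per gene for both sorts. SE is the absolute log2 fold change divided by the square root of the F statistic of glmQLFTest, which gives no SE itself. It is approximate, also where libraries of a group have 0 reads. CPM are on TMM-scaled sizes, and CPM per kb use the union of GENCODE M21 exons. Counts of libraries in a group differed by 51.2 to 832 chi-square per degree of freedom. Intervals of 3 reads cover counting error only, since amplified reads are not independent molecules. Levels were not compared between the tables. The members and lists were chosen with earlier results of these data known. Named are Jag1, Ppan, Npm1, Ncl, Fbl, Dkc1, Polr1a, Myc, up to 6 members per direction and sort with the smallest edgeR p, up to 2 more per role, up to 2 per other list, and 4 for the interaction. Wdr75 and Mycn in HSCs, and Bop1, Pes1, Wdr12, Ddx10 and Utp14a in macrophages, were chosen after their values were seen. Alternatives were DESeq2 1.42.0, upper-quartile scaling, library totals, no filter, a replicate block, thinning and leaving out each library. Of the per-sample columns, 0 were without a sample. Genotype labels of HSCs are used as given.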

Additional observations from a re-analysis of the deposited data

Results flagged for a closer look

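The genotype effect on Ppan differed between the sorts by the interaction test: macrophages minus HSCs gave -3.84 on the log2 scale (SE 0.67, edgeR interaction adjusted p = 0.0311), with all 3 Cre positive macrophage libraries below all 3 Cre negative ones and overlapping groups in HSCs. The adjusted p was 0.112, 0.104 and 0.0807 by edgeR without HSC replicate 1, 2 or 3 labelled Cre negative, so the call rests on each of these libraries. It also rests on the HSC labels, which the Jag1 values go against in 2 of the 3 libraries labelled Cre positive. The fit shares a single dispersion per gene between the sorts. In macrophages fitted alone the Ppan effect had an SE of 0.99 and an edgeR adjusted p of 0.773. Groups of 3 libraries are too small for a test of single outlying values.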

How the results depend on the processing

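No member passed the adjusted threshold in HSCs under any alternative run. In macrophages the number of members past it, 0 by edgeR, was 1 with DESeq2 (Ppan), 1 with no filter (Utp18) and 1 with the replicate block (Utp18), and 0 to 1 leaving out each library. The interaction called 2 with the replicate block, Ppan (edgeR adjusted p = 0.0037) and Utp18 (0.0011), and 0 to 2 leaving out each library, where the Ppan value ran from -4.11 to -3.52. It held with upper-quartile scaling (adjusted p = 0.0477), library totals (0.0372) and, chosen after seeing the data, thinned macrophages (0.0163). Same-numbered libraries did not deviate together (correlations of -0.0334 to 0.0268), and libraries did not all correlate best with their own number. With 3 libraries per group these correlations cannot exclude a pairing. With the block, the macrophage median of the members was -0.73 beside -0.72 for all genes.

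The macrophage median of all genes moved from -0.16 to -0.00 with upper-quartile scaling and 0.05 with library totals, and that of the members to -0.38 and -0.35; leaving out each library gave -0.86 to -0.42. With no filter the members' median lay 0.51 above that of all genes. The ribosomal protein median minus that of the members in macrophages ran from -0.31 to 0.080 leaving out each library. Without Ncl, chosen after seeing the data, the HSC groups' log2 ratio of members to ribosomal proteins differed by -0.53. Polr1a in macrophages turned to 0.094 with DESeq2, 0.056 with upper-quartile scaling, 0.095 with library totals and 0.085 with thinned reads; the cause was not tested. Leaving out each library turned the sign in HSCs of Ppan (-0.076 to 0.17), Fbl (-0.087 to 0.32), Dkc1 (-0.15 to 0.060), Polr1b (-0.73 to 0.073) and Nop56 (-0.28 to 0.071). In macrophages it did so for Gar1 (-0.21 to 0.52), Polr1c (-0.20 to 0.71), Dkc1 (-2.05 to 0.27), Nop2 (-0.14 to 0.51) and Rrp1b (-0.016 to 0.87). Depth limits the Cre positive macrophages, where 3 reads are worth up to 1.08 CPM.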
